A study of Mus musculus with 12 samples.

Results

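Regular adipogenic differentiation of 3T3-L1 cells was compared with the undifferentiated state in 6 of the 12 libraries of the study, 3 in each group, across 11022 genes. 3T3-L1 is an established clonal line of mouse embryo fibroblasts whose cells act as committed preadipocytes, and its genotype in both groups is wild-type per the labels. Differentiation, per the labels' protocols, was started past confluence with rosiglitazone at 2 µM, dexamethasone at 1 µM, insulin at 1 µg/mL and isobutylmethylxanthine at 0.5 mM for 2 days, went on with insulin alone for another 2 days, and ended in maintenance medium. Rosiglitazone is an agonist of the nuclear receptor encoded by Pparg, dexamethasone is a glucocorticoid, and isobutylmethylxanthine raises cyclic AMP. The medium of undifferentiated cells held 10% calf serum, that of differentiated cells 10% fetal bovine serum. Serum, inducers and cell state therefore changed together and cannot be told apart. The sources used here give neither the day of harvest nor how dense the undifferentiated cells were. The cells of the other 6 libraries differentiated with conditioned medium of WEP cancer cells. Those libraries entered the choice of tested genes, the scaling of libraries and the estimate of the spread between libraries. They were not part of the comparison itself. Nothing in the labels says that the libraries of a group came from separate cultures, so p-values measure library-to-library spread, which may be technical only.

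Adipogenesis proceeds as a cascade in which early C/EBP factors and the glucocorticoid receptor switch on Pparg and Cebpa, which then maintain each other and the genes of lipid storage. Mature fat cells are also sensors and secretory cells: they read catecholamines, lactate, ketone bodies and fatty acids through G protein-coupled receptors, import glucose through an insulin-responsive carrier, and release adipokines. Preadipocytes, in contrast, are matrix-producing cells that carry receptors and ligands of growth factor, Hedgehog and Wnt signalling, several of which restrain adipogenesis.

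The 6 libraries held 1101307 to 2589045 UMIs, and Pearson's r of log2 CPM over the 9378 tested genes, which are not independent replicates, was 0.976 to 0.983 between libraries of a group and 0.772 to 0.786 between groups. Levels below are CPM on TMM-scaled library sizes, given for libraries 1, 2 and 3 of a group in that order or as mean ± SD of 3 libraries, and log2 fold changes (regular over undifferentiated) are given ± SE. A gene was called by edgeR's quasi-likelihood test at a Benjamini-Hochberg adjusted p under 0.05 over all tested genes, and is described as strongly higher or lower where it was called and changed at least 4-fold. By that test 57.6% of tested genes were called, 29.6% higher and 28% lower, with a median absolute log2 fold change of 0.54 over all tested genes. Libraries count 3′ ends of RNA by UMI, so levels are shares of counted molecules and are not per length. For genes with 1 to 3 UMIs in a group, the ratio of the groups is given with an exact 95% counting interval, and for genes with none a lower bound. Both cover counting error only. Gene positions are those of the GENCODE annotation of GRCm38. Genes were named by a rule on size and level within each class and family. Genes added beyond it, such as relatives, partner subunits and receptors, were chosen after their values were seen. Strong changes made up 9.52% of tested genes, 5.63% higher (528 genes) and 3.89% lower (365 genes). Of these, 527 and 363 had no overlap between the groups, which choosing genes by call and size of change favours in advance. The share without overlap over all tested genes is not given here. The authors' deposited table called 526 and 364 in the same direction and 0 in the opposite. It rests on the same libraries and is not separate evidence. Large rises outnumbered large falls: 146 genes rose and 27 fell by 5 or more on the log2 scale. Scaling by total counts shifted the median log2 fold change over all tested genes from -0.0108 to -0.173, and the calls then split into 2253 higher and 3332 lower in place of 2774 and 2630. Strongly higher genes supplied 1.0 to 1.1% of UMIs in undifferentiated libraries and 11.7 to 12.2% after differentiation, and strongly lower genes 4.5 to 4.8% and 0.7%.

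The labelled cell states were checked against marker genes. All 15 adipocyte markers listed were called higher, with summed levels of 208 to 237 CPM in undifferentiated and 35300 to 37300 CPM in differentiated libraries. Among 11 preadipocyte markers, 9 were tested and 7 were called lower, with summed levels of 1160 to 1180 CPM against 289 to 360 CPM, among them the surface glycoprotein gene Thy1 (-2.70) and Cd44, the hyaluronan receptor gene (-2.20). The growth factor receptor gene Pdgfra was not called (56.4 ± 5.12 and 53.6 ± 8.31 CPM, edgeR adjusted p = 0.61), nor was Dlk1, which encodes an inhibitor of adipogenesis (8.07 ± 2.03 and 4.58 ± 2.28 CPM, edgeR adjusted p = 0.0809), which was called lower with total counts (-0.95), with libraries thinned to the lowest total (-1.40) and without regular library 3 (-1.19) or undifferentiated library 1 (-1.02). In bulk RNA, fewer cells of a type and less RNA per cell cannot be told apart. Of 8 epithelial markers, 3 were in the table, and the keratin genes Krt8 (4.12 ± 0.48) and Krt18 (3.36 ± 0.33) were both called higher, with a summed level of 3.58 to 6.21 CPM against 45.5 to 55.8 CPM. The macrophage list had 4 of 8 markers in the table at a summed 16.4 to 17.6 CPM and 10.0 to 13.6 CPM, where Cd68 was called higher (1.78 ± 0.47), though not without regular library 2 (1.3, edgeR adjusted p = 0.0573), and Lyz2 fell (-2.80 ± 0.60). The osteoblast list had 4 of 7 markers in the table, and the 2 tested, the secreted phosphoprotein gene Spp1 (-3.94 ± 0.09) and the bone factor gene Runx2 (-1.67 ± 0.20), both fell. The other 2, which were not tested, had no UMI in undifferentiated libraries: the sialoprotein gene Ibsp was at 10.9, 5.05 and 7.72 CPM after differentiation, at least 13.5-fold higher, and the alkaline phosphatase gene Alpl at 4.55, 5.82 and 3.56 CPM, at least 7.97-fold higher. The brown and beige list had 4 of 10 in the table, which lacked Ucp1, Ppargc1a, Dio2, Prdm16, Tmem26 and Tbx1. The 2 tested, Cox8b (0 before, 37.3, 38 and 48.1 CPM after) and Cox7a1 (6.04), both cytochrome c oxidase subunit genes, were called higher. Cidea (0.188 ± 0.326 and 3.12 ± 1.38 CPM) and Elovl3 (0 before, 4.55, 3.49 and 2.38 CPM after) were not tested. Of 2 tested chondrocyte markers Comp was called higher (1.76) and Sox9 lower (-2.0), and of 2 tested muscle markers Des was called higher (1.01) and Tnnt2 lower (29.4, 42.3 and 25.6 CPM before, 0, 0.388 and 0.594 CPM after). None of 6 endothelial markers was analysed here. The part of other cell types in the results was not tested.

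Among 4 classes of regulatory and exported proteins, defined by gene symbols, 1166 of 1385 genes were tested and held 261 of the 893 strongly changed genes. Secreted proteins had the highest share, with 36.8% of 315 tested genes strongly changed (55 higher and 61 lower), against 9.52% of all tested genes. Receptors followed with 24.9% of 213 (27 higher and 26 lower), transporters and channels with 16.5% of 303 (33 and 17), and transcription factors with 12.8% of 336 (21 and 22). Members left out of the test had too few counts, and a gene can pass the count filter through its high group alone, so these shares describe the tested members only. Median log2 fold changes were -0.28 for secreted proteins, -0.23 for receptors, 0.18 for transporters and channels and -0.12 for transcription factors, beside -0.01 for all tested genes. Counts of called family members below stand beside 29.6% of all tested genes called higher and 28% called lower. A count near those shares is not particular to its family.

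**Figure D1:**
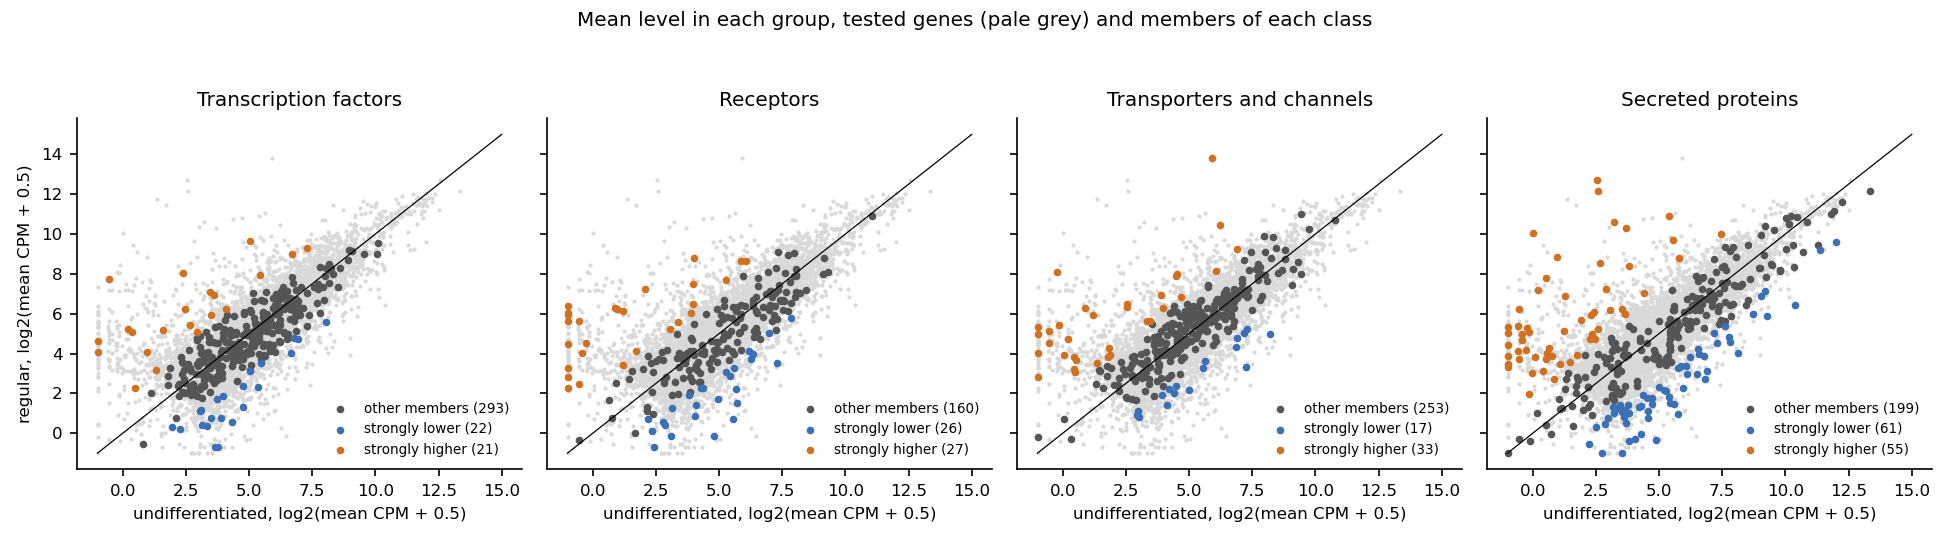
Mean level of every tested gene in undifferentiated libraries (x axis) and after regular differentiation (y axis), both as log2(mean CPM + 0.5), with the members of each of 4 classes in dark points and the other tested genes in pale grey. Secreted proteins spread farthest from the diagonal of equal level, with 55 members strongly higher (orange) and 61 strongly lower (blue), and the column of points at the left edge of each panel holds genes with no count in undifferentiated cells.

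Promoter sequences were read for 7562 of the 9378 tested genes from RefSeq (build GRCm38.p6, 250 bases before to 50 after the annotated start), and motif letters were searched on both strands. The interferon-stimulated response element, searched as GAAA, any 2 bases, GAAA, was in 8.3% of promoters of strongly lower genes (23 of 276), in 1.5% of those of strongly higher genes (6 of 401) and in 2.9% of all. A direct repeat of AGGTCA 1 base apart with 1 mismatch allowed in each copy, the kind of repeat bound by the Pparg product with its RXR partner, was in 3.2% of promoters of strongly higher genes (13 of 401), 1.1% of strongly lower (3 of 276) and 1.8% of all. The C/EBP letters TTGC, any 2 bases, AA were in 10.5%, 9.4% and 8.1%. The CArG box (CC, 6 bases of A or T, GG) was in 1.5%, 2.5% and 1.3%, the E2F letters (TTT, 2 bases of C or G, CGC) in 3.2%, 2.2% and 4.3%, and the cell cycle homology letters TTTGAA in 9.0%, 12% and 11.1%. Motifs could overlap one another. The median number of CG dinucleotides in the 300 bases was 16 in promoters of strongly higher genes, 15 in those of strongly lower genes and 22 in all. The 250 bases before the start are given for 6 genes that changed strongly, in the direction of the gene, with the motif letters in capitals. Stat2, Cxcl10 and Edn1 fell and carry the interferon letters, Cd36 and Ccl6 rose and carry the direct repeat, and Plin1 rose and carries the C/EBP letters at 2 places.
Stat2 (GRCm38.p6, chr10:128270248-128270497, plus strand): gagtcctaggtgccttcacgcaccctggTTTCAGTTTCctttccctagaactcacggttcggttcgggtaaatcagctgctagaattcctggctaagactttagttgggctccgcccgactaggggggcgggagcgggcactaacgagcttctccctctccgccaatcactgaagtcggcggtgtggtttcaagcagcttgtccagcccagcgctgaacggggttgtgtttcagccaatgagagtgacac
Cxcl10 (GRCm38.p6, chr5:92348890-92349139, minus strand): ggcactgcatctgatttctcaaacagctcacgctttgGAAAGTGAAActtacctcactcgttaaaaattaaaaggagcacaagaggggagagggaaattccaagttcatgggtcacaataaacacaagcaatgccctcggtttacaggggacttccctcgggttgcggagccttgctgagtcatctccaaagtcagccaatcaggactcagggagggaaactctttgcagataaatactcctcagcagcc
Edn1 (GRCm38.p6, chr13:42301226-42301475, plus strand): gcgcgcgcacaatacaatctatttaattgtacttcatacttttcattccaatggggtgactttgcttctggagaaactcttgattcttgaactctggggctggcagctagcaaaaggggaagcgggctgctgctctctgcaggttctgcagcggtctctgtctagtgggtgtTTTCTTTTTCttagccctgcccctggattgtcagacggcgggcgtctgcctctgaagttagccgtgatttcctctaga
Cd36 (GRCm38.p6, chr5:17835897-17836146, minus strand): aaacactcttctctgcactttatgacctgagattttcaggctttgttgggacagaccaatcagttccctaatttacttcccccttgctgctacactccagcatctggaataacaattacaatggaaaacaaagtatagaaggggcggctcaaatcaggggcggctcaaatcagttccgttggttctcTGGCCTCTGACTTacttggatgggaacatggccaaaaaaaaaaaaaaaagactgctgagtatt
Ccl6 (GRCm38.p6, chr11:83593088-83593337, minus strand): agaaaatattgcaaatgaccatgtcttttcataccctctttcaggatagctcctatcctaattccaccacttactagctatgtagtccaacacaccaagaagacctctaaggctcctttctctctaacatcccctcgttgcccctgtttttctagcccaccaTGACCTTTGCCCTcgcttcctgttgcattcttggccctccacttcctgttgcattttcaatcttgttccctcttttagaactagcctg
Plin1 (GRCm38.p6, chr7:79732777-79733026, minus strand): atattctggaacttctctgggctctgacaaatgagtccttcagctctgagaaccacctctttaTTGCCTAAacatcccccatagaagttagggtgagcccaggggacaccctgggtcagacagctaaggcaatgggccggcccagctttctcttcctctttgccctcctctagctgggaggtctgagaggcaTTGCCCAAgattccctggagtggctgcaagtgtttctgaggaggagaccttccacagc
A match is a run of letters, not a measured binding site. Cxcl10 also carries a direct repeat match although it fell. The Cd36 stretch lies inside that gene as GENCODE annotates it (chromosome 5, 17781690 to 17888801, minus strand). It is therefore not that of the outermost start. The 6 printed genes were chosen after their values were seen, and other genes with the same letters moved the other way. Of 216 tested genes with the interferon letters, 54 were called higher and 68 lower. For the direct repeat these counts were 50 and 38 of 138, and for the C/EBP letters 199 and 152 of 609. Over all tested genes 29.6% were called higher and 28% lower. Plin1, which encodes the coat protein of lipid droplets, stood at 0, 0.705 and 0.512 CPM in undifferentiated libraries and at 260.3, 256 and 262 CPM after differentiation. The groups were apart by 666-fold (95% counting interval 184 to 5502).

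**Figure D2:**
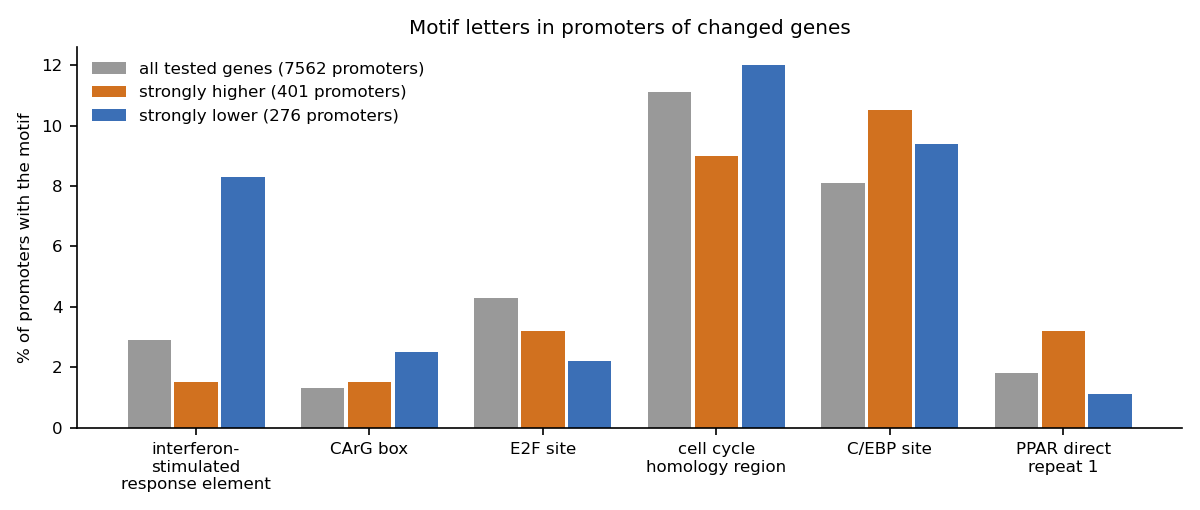
Percent of RefSeq promoters (y axis) that hold each of 6 motifs on either strand (x axis), for all tested genes (grey), strongly higher genes (orange) and strongly lower genes (blue). The interferon-stimulated response element was in 8.3% of promoters of strongly lower genes and 2.9% of all, and the PPAR direct repeat in 3.2% of those of strongly higher genes and 1.8% of all.

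Most tested transcription factors of the adipogenic cascade rose. In a list of 24 adipogenic activators, 22 were tested, 16 were called higher and 4 lower. Strong changes were 7 rises and 1 fall (-2.47), and the median log2 fold change of tested members was 1.26. Klf15, a Krüppel-like factor induced by glucocorticoids (chromosome 6, 90462576 to 90475238, plus strand), had 0.565, 0 and 0 CPM in undifferentiated libraries and 219, 222 and 208 CPM after differentiation. With 1 UMI in the first group and 1163 in the second, the groups were apart by 1116-fold (95% counting interval 200 to 44130). The master regulator Pparg (chromosome 6, 115360951 to 115490399, plus strand) stood at 33.9, 31.7 and 32.2 CPM and then at 772, 798 and 829 CPM (4.61 ± 0.11, edgeR adjusted p = 2.28e-34). Its partner Cebpa went from 5.08, 4.94 and 4.09 CPM to 251, 266 and 285 CPM (5.82 ± 0.17), and Stat5a, a transducer of growth hormone signalling, from 16.5 ± 1.83 to 75.9 ± 3.51 CPM (2.20 ± 0.17). Every differentiated library lay above every undifferentiated one for these genes. The lipogenic factor Srebf1 (2.52) and the oxysterol receptor gene Nr1h3 (3.63) rose as well. Among the early factors, Cebpb was called (497 ± 20.5 and 576 ± 25.8 CPM, 0.21, edgeR adjusted p = 0.0264), but not without regular library 1 or 2 (0.12 and 0.17) or undifferentiated library 1, 2 or 3 (0.13, 0.20 and 0.19), nor by DESeq2 (0.19) or with total counts (0.05), and Cebpd was not called (3 ± 1.27 and 4.86 ± 1.42 CPM, edgeR adjusted p = 0.277). Of 21 factors listed as restraining adipogenesis, all tested, 10 were called lower and 4 higher, 3 and 1 of them strongly. The strong rise in this list was that of Foxo1, a forkhead factor restrained by insulin (2.81). Gata2, which holds preadipocytes in that state, fell from 13, 12 and 17.9 CPM to 0.91, 2.72 and 0 CPM (-3.23 ± 0.49, and -5.09 without regular library 2), without overlap.

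Hypoxia-inducible alpha subunits changed in opposite directions. Hif3a had no UMI in undifferentiated libraries and 16.4, 27.9 and 28.5 CPM after differentiation, at least 41.6-fold higher (edgeR adjusted p = 2.53e-14). Epas1, which encodes HIF-2 alpha, rose from 3.95, 5.64 and 5.63 CPM to 81, 74.1 and 70.1 CPM (3.86 ± 0.22). Hif1a, the widely used subunit, fell from 114, 80.4 and 81.8 CPM to 19.1, 34.9 and 38 CPM (-1.52 ± 0.19, edgeR adjusted p = 2.05e-07). None of the 3 genes had overlapping groups. The shared partner gene Arnt was not called (37.9 ± 4.13 and 35.1 ± 0.816 CPM, edgeR adjusted p = 0.572). Across the bHLH family 13 of 33 tested genes were called higher and 12 lower, and the 4 strong changes were all rises: Hif3a, Epas1, Mxi1, which encodes an antagonist of Myc (3.35), and Srebf1. Myc itself was not called (117 ± 12 and 107 ± 1.16 CPM, edgeR adjusted p = 0.329), except as lower with total counts (-0.28).

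Of 22 tested nuclear receptors, 10 were called higher and 5 lower. Among 47 tested coregulators 11 rose and 15 fell (median -0.16), 4 and 1 of them strongly. Ppargc1b, a coactivator of mitochondrial genes, was at 0 in every undifferentiated library and at 13.7, 15.1 and 20.8 CPM after differentiation, at least 28.3-fold higher. Nrip1, a corepressor of nuclear receptors in fat, rose from 2.55 ± 0.282 to 35.2 ± 1.84 CPM (3.75 ± 0.30), and the coactivator gene Ncoa1 rose by 2.48. The zinc finger gene Zbtb16, a target of glucocorticoids, stood at 0.565, 1.41 and 0 CPM before and 36.4, 36.5 and 39.8 CPM after, a difference of 64.3-fold (95% counting interval 21.7 to 314). Xbp1, a factor of secretory cells and the unfolded protein response, rose from 156 ± 6.03 to 633 ± 15.2 CPM (2.02 ± 0.09).

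Falls among transcription factors included relays of growth factor and Hedgehog signals. Of 12 tested ETS factors, 8 were called lower, 4 of them strongly, and 1 higher, with a median log2 fold change of -0.99. Etv4 went from 13.6, 15.5 and 10.2 CPM to 0, 0.388 and 0 CPM, lower by 68.8-fold (95% counting interval 11.9 to 2756). Its relative Etv5 fell from 9.71 ± 0.615 to 0.776 ± 1.34 CPM (-3.05), with all remaining counts in regular library 2, and the only rise was that of Etv3 (1.82). Gli1, both an effector and a target of Hedgehog signalling, went from 10.7, 16.2 and 9.72 CPM to 0, 0.388 and 0 CPM, lower by 63.5-fold (95% counting interval 11 to 2551). Gli3 fell with it (-2.46, and -3.17 without regular library 1) and Gli2 was not called (13.9 ± 3.94 and 9.67 ± 2.84 CPM), while Ptch1, which encodes the Hedgehog receptor and is usually another target, rose from 6.21, 9.88 and 5.63 CPM to 20, 20.2 and 11.9 CPM (1.3 ± 0.29, edgeR adjusted p = 0.000185). Hmga2, an architectural factor of growing mesenchymal cells, fell from 21.5, 28.2 and 29.7 CPM to 4.55, 0.776 and 0.594 CPM (-4.07 ± 0.53, and -5.14 without regular library 1), and Vgll3, a TEAD cofactor, from 19.8, 15.5 and 22.5 CPM to 0, 1.16 and 1.78 CPM (-4.04 ± 0.47). In the SRF, MEF2 and Hippo family, 7 of 12 tested genes were called lower and 0 higher. At an unadjusted p under 0.05, edgeR had 1 gene of this family higher and DESeq2 0.

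Stat2 and Irf9 encode parts of the complex that carries type I interferon signals to DNA, and both fell. Stat2, whose promoter is printed above, stood at 122, 123 and 122 CPM and then 29.1, 27.9 and 22 CPM (-2.22 ± 0.14). Irf9 stood at 90.3, 107 and 102 CPM and then 19.1, 10.5 and 17.2 CPM (-2.77 ± 0.18). Neither gene had overlapping groups. Irf7, an amplifier of interferon production, fell from 47 ± 8.03 to 14.9 ± 3.39 CPM (-1.68). The type I receptor genes Ifnar1 (15 ± 2.08 and 17.2 ± 3.68 CPM) and Ifnar2 (147 ± 11.6 and 132 ± 5.61 CPM) were not called (edgeR adjusted p = 0.483 and 0.17), though Ifnar2 was called lower with total counts (-0.32) and without undifferentiated library 1 (-0.28). Ifngr1, the ligand-binding chain of the receptor for interferon gamma, rose from 37.8, 42.3 and 35.3 CPM to 233, 183 and 208 CPM (2.42 ± 0.12), and the other chain gene, Ifngr2, fell from 88.2 ± 11.2 to 70.8 ± 0.522 CPM (-0.33). Stat6 (0.52) and Stat5b (0.95), which relay other cytokines and hormones, rose, and Stat3 was not called (90.3 ± 6.61 and 93.5 ± 5.4 CPM).

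Homeobox and T-box genes, some of which mark the body position a cell came from, moved in both directions. Of 46 tested, 14 were called higher and 18 lower, beside 29.6% and 28% of all tested genes. Hoxd3 rose from 1.13, 0.705 and 2.56 CPM to 15.5, 15.9 and 18.4 CPM (3.36 ± 0.43, and 3.98 without undifferentiated library 3), and its neighbours in the Hoxd cluster Hoxd4 (1.83) and Hoxd8 (1.04) rose too, while Hoxd9 was not called (14.8 ± 3.1 and 17.3 ± 2.92 CPM). Hoxc13 fell from 16.4, 7.05 and 8.7 CPM to 3.64, 0 and 0 CPM (-3.71 ± 0.65), where regular library 1 held all the remaining counts, and the value was -2.88 without regular library 2. The paired-related genes Prrx1 (-1.17) and Prrx2 (-1.77), which mark limb and connective tissue mesenchyme, both fell. The cell cycle family of E2F and MYB factors had 4 of 10 tested genes lower and 0 higher, led by E2f7 (-2.20) and Foxm1, a driver of mitotic genes (-1.82). At an unadjusted p under 0.05, edgeR had 2 of these genes higher and DESeq2 0. Of 9 tested AP-1 genes 2 rose, led by Fos (1.41), and 2 fell, led by Jdp2, which encodes a repressor of AP-1 (-1.39).

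**Figure D3:**
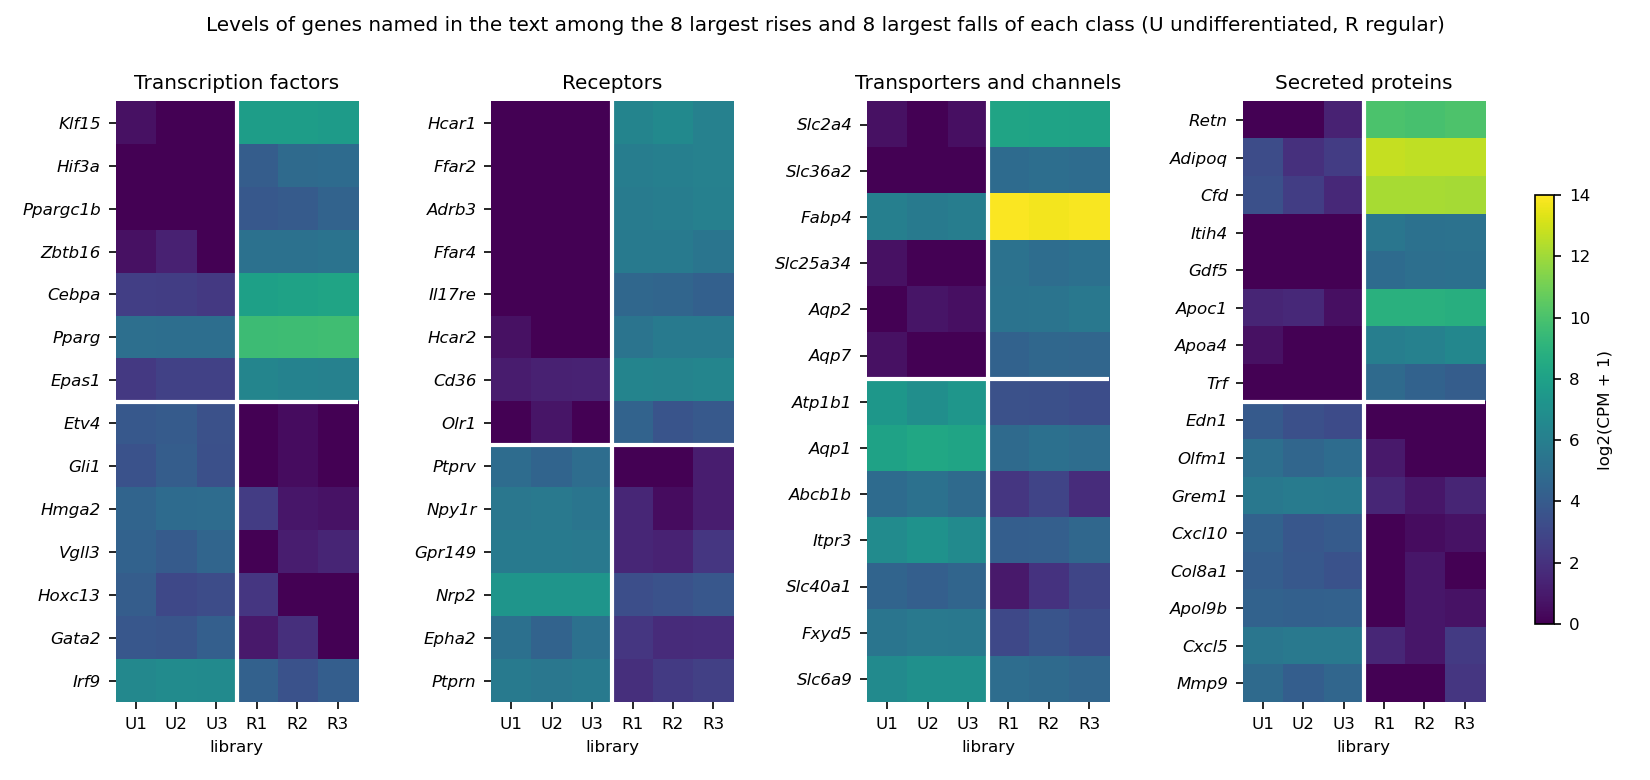
Level of genes named in the text from among the 8 largest rises (above the white line) and the 8 largest falls (below it) in each of 4 classes, as log2(CPM + 1) in colour, with 1 row per gene and 1 column per library (U1 to U3 undifferentiated, R1 to R3 regular). The Hcar1, Ffar2, Adrb3, Ffar4 and Il17re rows are at 0 in all 3 undifferentiated libraries, and the 3 libraries of a group resemble each other in every panel.

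Receptors for metabolites were among the genes that went from no count to levels far above the floor. The lactate receptor gene Hcar1 (chromosome 5, 123876736 to 123880020, minus strand) had no UMI in undifferentiated libraries and 78.3, 99.4 and 69.5 CPM after differentiation, at least 141-fold higher. Its neighbour Hcar2, which encodes the receptor for the ketone body 3-hydroxybutyrate and for niacin, had 1 UMI before and 41, 53.6 and 51.7 CPM after, 259-fold (95% counting interval 46.1 to 10270). Both couple to inhibition of lipolysis. Ffar2, a receptor for short-chain fatty acids, was at 0 and then at 60.1, 65.2 and 69.5 CPM (at least 111-fold), and Ffar4, a receptor for long-chain fatty acids, at 0 and then at 53.7, 52 and 42.2 CPM (at least 84.5-fold). In the whole family of lipid, metabolite and nucleotide receptors, 6 of 15 tested genes were called higher and 7 lower. The falls included receptors of lysophospholipids. The lysophosphatidic acid receptor gene Lpar1 fell from 74, 63.5 and 92.6 CPM to 6.37, 14.4 and 17.8 CPM (-2.49 ± 0.20), and the sphingosine phosphate receptor gene S1pr2 from 75.1, 82.5 and 82.4 CPM to 17.3, 14 and 14.2 CPM (-2.43 ± 0.18). Lpar1 and S1pr2 had no overlap between groups.

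Of 17 listed hormone and peptide receptor genes, 10 had enough counts to be tested, with 7 called higher and 3 lower. The median of the tested genes was 2.95 on the log2 scale. It was 2.52 with the 3 genes at 0 in undifferentiated cells set to their bounds. Those 3 genes passed the count filter through differentiated cells alone, so the counts and medians describe the tested genes and not the whole family. Adrb3, which encodes the adrenergic receptor that starts lipolysis in mouse fat, was at 0 in undifferentiated libraries and at 55.5, 60.9 and 66.5 CPM after differentiation, at least 105-fold higher (edgeR adjusted p = 6.55e-21). The melanocortin receptor gene Mc5r rose from 0, 0 and 1.02 CPM to 16.4, 25.2 and 25.5 CPM, 60.5-fold (95% counting interval 16.4 to 505). The receptor genes for the gut hormones secretin and GIP, Sctr and Gipr, were at 0 before and at 9.1, 8.93 and 9.5 CPM and 8.19, 5.05 and 6.53 CPM after, at least 15.7-fold and 11.3-fold higher. All 4 receptors signal through cyclic AMP. The largest fall was that of Npy1r, a neuropeptide Y receptor gene, from 45.7, 50.1 and 42.5 CPM to 1.82, 0.388 and 1.19 CPM (-5.50 ± 0.36). Ednra, which encodes an endothelin receptor, rose from 21.8 ± 2.48 to 63.8 ± 6.25 CPM (1.54 ± 0.17). Its ligand gene Edn1, printed above, went from 14.7, 9.88 and 8.19 CPM to no UMI in any differentiated library, at least 19.5-fold lower.

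Receptors for lipoproteins and for cargo rose in 11 of 26 tested cases and fell in 8. Cd36, a carrier of fatty acids and oxidised lipoproteins with a promoter printed above, rose from 1.13, 1.41 and 1.53 CPM to 79.2, 76.1 and 80.8 CPM (5.77 ± 0.39). Sort1, which encodes the sorting receptor sortilin of glucose transporter vesicles, rose from 2.82, 3.53 and 4.6 CPM to 155, 154 and 146 CPM (5.33 ± 0.20), and Scarb1, the receptor gene for high-density lipoprotein, from 57.2 ± 5.02 to 395 ± 33.7 CPM (2.78 ± 0.10). Olr1, a receptor for oxidised lipoprotein, stood at 0, 0.705 and 0 CPM and then 20.9, 11.6 and 14.2 CPM, 73.9-fold (95% counting interval 12.9 to 2957). The adiponectin receptor gene Adipor2 rose from 65.7 ± 4.76 to 399 ± 17 CPM (2.60 ± 0.10). Paqr4, of the same protein family, rose from 20.3, 10.6 and 15.9 CPM to 476, 438 and 418 CPM (4.79 ± 0.13). Lrp1, a broad endocytic receptor, fell from 558 ± 39.9 to 254 ± 18.8 CPM (-1.13), and its chaperone gene Lrpap1 rose (1.49).

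Growth factor receptors fell more often than they rose, with 10 of 21 tested tyrosine kinase genes lower and 6 higher. Epha2, an ephrin receptor gene, fell from 35, 21.2 and 35.8 CPM to 3.64, 2.33 and 2.38 CPM (-3.54 ± 0.33). Among the receptors for Gas6 and protein S, Axl fell from 226, 229 and 241 CPM to 53.7, 50.5 and 59.4 CPM (-2.10 ± 0.11) and Tyro3 fell (-2.22), while Mertk rose from 8.47, 12.7 and 7.67 CPM to 28.2, 31.1 and 34.4 CPM (1.74 ± 0.24). None of those 3 had overlapping groups. Pdgfrb, a receptor of mesenchymal growth, fell from 213 ± 28.1 to 69.2 ± 12 CPM (-1.60). Fgfr2 rose from 9.6, 7.05 and 12.8 CPM to 47.3, 46.6 and 48.1 CPM (2.22 ± 0.22), and Fgfr1 was not called (246 ± 39 and 239.9 ± 9.03 CPM, edgeR adjusted p = 0.78). The growth hormone receptor gene Ghr rose from 161 ± 10.8 to 544 ± 35 CPM (1.75 ± 0.09).

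Cytokine receptors were divided, with 9 of 24 tested genes higher and 10 lower. Il17re, which encodes a receptor subunit for IL-17C, was at 0 before and at 24.6, 22.5 and 18.4 CPM after, at least 37.5-fold higher, and Il17rc, a subunit gene of the receptor for IL-17A and IL-17F, rose from 152 ± 12.7 to 311 ± 24.1 CPM (1.03). Il17ra, the subunit shared by IL-17 receptors, fell from 45 ± 6.57 to 17.1 ± 4.07 CPM (-1.33 ± 0.20), and Il17rd fell too (-1.91). Likewise the shared chain of the IL-6 family, Il6st, fell from 126, 137 and 143 CPM to 44.6, 57.4 and 46.3 CPM (-1.42 ± 0.12) and Osmr by -1.58. Tnfrsf1a, a receptor for TNF, rose from 248 ± 32.9 to 519.6 ± 21.6 CPM (1.07).

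Receptors of adhesion and guidance were called lower more often than higher. Of 33 tested integrins and matrix receptors, 19 were called lower and 6 higher, with a median of -0.37, and the alpha chains of integrins moved apart. Itga5 and Itgav, chains of fibronectin and vitronectin receptors, fell from 123, 159 and 168 CPM to 31.9, 45.8 and 31.5 CPM (-1.98 ± 0.36) and from 70.6, 62.8 and 81.8 CPM to 10.9, 19 and 20.8 CPM (-2.02 ± 0.18). The laminin receptor chains Itga6 and Itga7 rose from 13.6, 16.9 and 14.3 CPM to 178, 191 and 177 CPM (3.62 ± 0.14) and from 1.69, 2.12 and 0.512 CPM to 71, 84.2 and 67.7 CPM (5.71 ± 0.29). Itga3, also a laminin receptor chain, fell (-2.12), as did the shared beta chain Itgb1 (262 ± 23.6 to 138 ± 14.9 CPM, -0.93). Of 23 tested Notch, guidance and junctional receptors, 11 were called lower, 4 higher and 8 neither. The guidance receptor gene Nrp2 fell from 158, 157 and 157 CPM to 9.1, 10.5 and 13.1 CPM (-3.83 ± 0.15) with no overlap, while Nrp1 was not called (35.8 ± 7.97 and 32.1 ± 7.82 CPM, edgeR adjusted p = 0.723). In the same list 2 genes of the tyrosine phosphatase receptor family fell, Ptprv, annotated as a processed transcript, from 29.9, 21.9 and 31.2 CPM to 0, 0 and 1.19 CPM, lower by 75.5-fold (95% counting interval 20.5 to 629.6), and Ptprn from 50.2 ± 3.75 to 4.12 ± 1.31 CPM (-3.53). Of 11 tested receptors of Wnt and Hedgehog ligands, Ptch1 included, 4 rose and 6 fell, Fzd4 by 1.84 and Fzd2 by -1.77, and the co-receptor genes Lrp5 (0.81) and Lrp6 (0.60) rose. Orphan and adhesion G protein-coupled receptors had 5 of 22 tested genes higher and 10 lower, with Gpr149 falling from 54.2, 50.8 and 50.1 CPM to 1.82, 1.55 and 3.56 CPM (-4.48 ± 0.30).

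**Figure D4:**
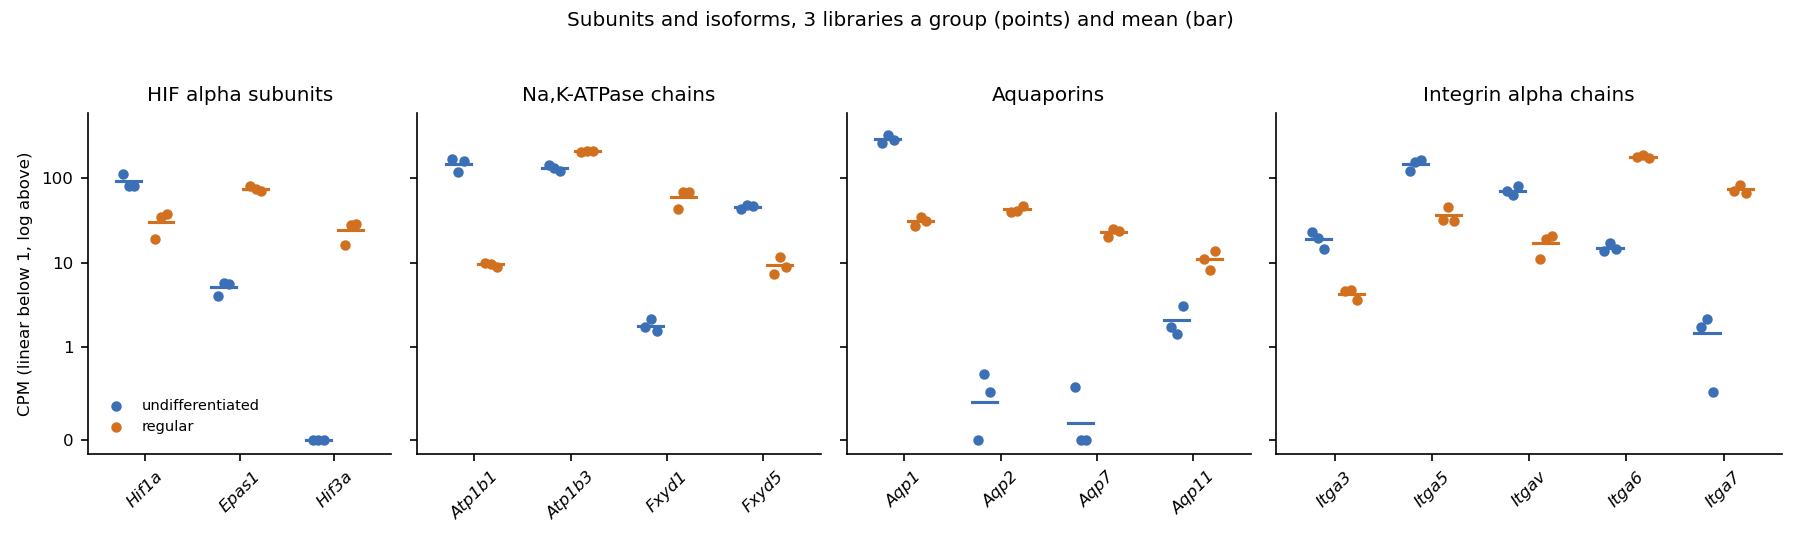
Level of related subunits or isoforms in each library (points, 3 a group) with the group mean (bar), in CPM on an axis that is linear below 1 and logarithmic above, for HIF alpha subunits, beta and FXYD chains of the Na,K-ATPase, aquaporins and integrin alpha chains. In each panel at least 1 gene fell (Hif1a, Atp1b1, Aqp1, Itga5) and at least 1 rose (Epas1, Atp1b3, Aqp2, Itga7), and the 2 groups of points do not overlap for these genes.

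Transporters rose more often than they fell, 119 against 69 of 303 tested, and carriers of fuel led. The insulin-responsive glucose carrier gene Slc2a4 (chromosome 11, 69942539 to 69948188, minus strand) stood at 0.565, 0 and 0.512 CPM in undifferentiated libraries and at 285, 274 and 265 CPM after differentiation, 703-fold (95% counting interval 194 to 5807). The ubiquitous carrier gene Slc2a1 was not called (116 ± 19.1 and 130.1 ± 7.12 CPM, edgeR adjusted p = 0.306). Among 6 fatty acid carriers, all tested, 5 rose and 1 fell. Fabp4, the fatty acid binding protein of fat cells, was the gene with the highest level after differentiation (64.4, 53.6 and 59.3 CPM before, 15330, 13910 and 14650 CPM after, 7.94 ± 0.09). Fabp5 rose from 74 ± 15.5 to 1388 ± 34.2 CPM (4.22) and the membrane carrier gene Slc27a1 by 1.98, whereas Slc27a3 fell (-0.86), a call lost without regular library 1 or 3 (-0.78 and -0.77) or undifferentiated library 1 (-0.79) and by DESeq2 (-0.92). Slc5a6, which takes up biotin and pantothenate, cofactors of fatty acid synthesis, rose from 3.95, 6.35 and 5.63 CPM to 92.8, 84.2 and 93.8 CPM (4.07 ± 0.21).

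Of 50 tested mitochondrial carriers, 33 were called higher and 8 lower (median 0.77), beside 29.6% and 28% of all tested genes. Slc25a10, which exchanges malate and succinate for phosphate, rose from 0, 1.41 and 0.512 CPM to 27.3, 25.2 and 24.4 CPM, 43.5-fold (95% counting interval 14.6 to 214). Slc25a34, a carrier whose cargo is not well known, had 0.565, 0 and 0 CPM before and 37.3, 31.4 and 35.6 CPM after, 175-fold (95% counting interval 31 to 6938). The citrate carrier gene Slc25a1 rose from 318 ± 20.8 to 930.2 ± 34.9 CPM (1.55 ± 0.08), the pyruvate carrier genes Mpc1 and Mpc2 by 1.58 and 1.61, and the serine carrier gene Sfxn1 by 2.07. The adenine nucleotide carrier gene Slc25a5 rose from 682 ± 13.1 to 2022 ± 42 CPM (1.57). It has near copies, so its count is uncertain. Falls included the ATP-Mg/phosphate carrier gene Slc25a24 (-1.37) and the calcium uniporter gene Mcu (36.7 ± 5.51 to 18 ± 3.22 CPM, -0.97).

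Amino acid carriers were split, with 6 of 25 tested genes higher and 8 lower. Slc36a2, a proton-coupled carrier of small amino acids found on fat cells, was at 0 before and at 29.1, 32.6 and 30.3 CPM after, at least 52.6-fold higher. The glutamate carrier gene Slc1a3 rose from 20.9, 16.9 and 29.2 CPM to 274, 238 and 252 CPM (3.47 ± 0.14), and the glutamine carrier gene Slc1a5 from 107, 130.5 and 114 CPM to 603, 550.4 and 637 CPM (2.35 ± 0.10). Slc7a5 and Slc3a2, the chains of the exchanger for large neutral amino acids, fell together (225 ± 18.2 to 101 ± 8.05 CPM, -1.16, and 553 ± 28.5 to 298 ± 7.88 CPM, -0.89). Slc43a1, another carrier of large neutral amino acids, stood at 1.13, 0 and 0.512 CPM and then 14.6, 19.4 and 10.7 CPM, 26.9-fold (95% counting interval 8.89 to 133). The glycine carrier gene Slc6a9 fell from 103, 127 and 129 CPM to 30.9, 27.2 and 23.8 CPM (-2.15 ± 0.16), and the arginine carrier gene Slc7a1 by -1.44.

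Chain genes of the sodium pump moved in opposite directions. Among beta chains, which carry the pump to the cell surface, Atp1b1 fell from 169, 118 and 162 CPM to 10, 9.7 and 8.91 CPM (-3.98 ± 0.20) and Atp1b3 rose from 146, 133 and 124 CPM to 208, 210 and 212 CPM (0.65 ± 0.10). The regulatory FXYD chains moved apart in the same way: Fxyd1, which encodes phospholemman, rose from 1.69, 2.12 and 1.53 CPM to 43.7, 68.3 and 68.3 CPM (5.08 ± 0.31), and Fxyd5 fell from 42.9, 48.7 and 47.1 CPM to 7.28, 11.6 and 8.91 CPM (-2.23 ± 0.23). None of the 4 genes had overlapping groups, and edgeR adjusted p was at most 1.65e-07 (Atp1b3). The vacuolar proton pump had 5 of 16 tested genes higher, beside 29.6% of all tested genes, and 1 lower, the osteoclast-type subunit gene Tcirg1 (-1.41).

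Of 5 tested water and glycerol channels, 3 rose and 2 fell, 4 of them strongly. Aqp7, the glycerol channel that releases the product of lipolysis, rose from 0.565, 0 and 0 CPM to 20, 24.8 and 23.8 CPM, 121-fold (95% counting interval 21.3 to 4815). Aqp2, known as the vasopressin-regulated water channel of the kidney, rose from 0, 0.705 and 0.512 CPM to 40, 40.8 and 47.5 CPM, 109.9-fold (95% counting interval 30.1 to 913). Aqp11 rose too (2.27). Aqp1, a water channel of mesenchymal and endothelial cells, fell from 266, 325 and 284 CPM to 27.3, 34.9 and 31.5 CPM (-3.19 ± 0.11). The leak potassium channel gene Kcnk3 rose from 13.6, 14.1 and 15.3 CPM to 132, 119.5 and 110.4 CPM (3.05 ± 0.15), while 4 of 6 tested potassium channel genes fell. Calcium, sodium and TRP channel genes fell in 9 of 25 tested cases and rose in 7, beside 28% and 29.6% of all tested genes. The inositol trisphosphate receptor gene Itpr3 fell from 107, 138 and 103 CPM to 17.3, 17.9 and 24.4 CPM (-2.53 ± 0.16) and Itpr2 by -1.04, while Itpr1 rose (17.5 ± 1.03 to 43 ± 2.25 CPM, 1.29). The voltage-gated channel genes Cacna1a (-2.05) and Cacnb3 (-2.13) fell, and Cacna1g rose (53.9 ± 7.03 to 171 ± 3.68 CPM, 1.65).

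ABC transporters rose in 12 of 27 tested cases and fell in 6. Abca1, which exports cholesterol to apolipoproteins, rose from 5.65, 3.53 and 6.65 CPM to 78.3, 82.3 and 82 CPM (3.88 ± 0.22), and its partner Abcg1 from 0.906 ± 0.853 to 8 ± 5.37 CPM (2.83, and 3.42 without undifferentiated library 1). Abcb1b, which encodes the drug exporter P-glycoprotein, fell from 28.8, 36 and 28.1 CPM to 3.64, 6.21 and 2.38 CPM (-2.77 ± 0.30, and -3.43 without regular library 2). Among metal carriers, 5 of 24 tested genes rose and 6 fell, and the iron exporter gene Slc40a1 fell from 22, 17.6 and 22.5 CPM to 0.91, 3.1 and 6.53 CPM (-2.46 ± 0.34, and -3.07 without regular library 3). The transferrin gene Trf, whose product carries iron outside cells, was at 0 before and at 27.3, 20.2 and 16.6 CPM after, at least 36.7-fold higher, and its receptor gene Tfrc was not called (12.3 ± 7.22 and 13.2 ± 2.12 CPM, edgeR adjusted p = 0.922). Slc4a4, a sodium bicarbonate carrier, rose from 0.953 ± 0.221 to 12.1 ± 2.61 CPM (3.59 ± 0.50), and the phosphate carrier gene Slc20a1 fell from 49.6 ± 5.17 to 11.8 ± 2.24 CPM (-2.13 ± 0.20).

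**Figure D5:**
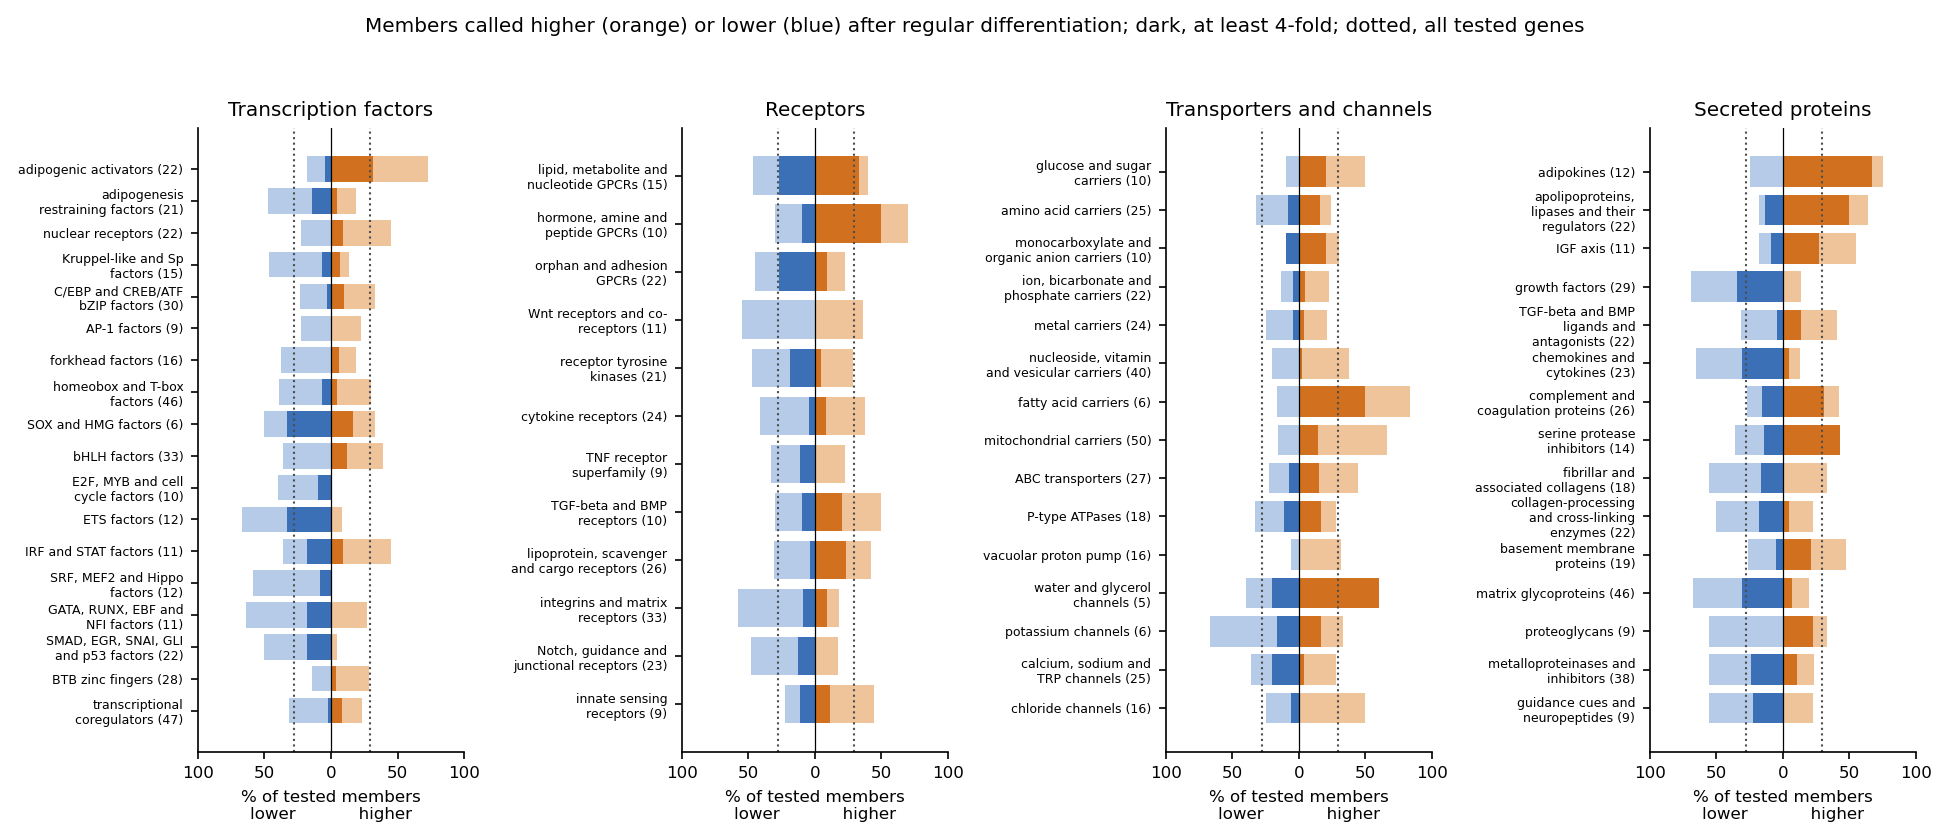
Percent of tested members (x axis) of each family called higher (orange, to the right) or lower (blue, to the left) after regular differentiation, with strong changes in the dark part of each bar and the number tested in brackets, for families with at least 5 tested members. Dotted lines mark the 29.6% of all tested genes called higher and the 28% called lower, and adipokines, fatty acid carriers and mitochondrial carriers lie above the first while growth factors, chemokines, ETS factors and matrix glycoproteins lie beyond the second.

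Most tested adipokine genes rose. Of 12 tested adipokines 9 rose and 3 fell, and their median was 4.71 on the log2 scale, or 3.99 with Trf at its bound. Adipoq, the adiponectin gene, went from 8.47, 2.82 and 4.6 CPM to 6899, 6479 and 6437 CPM (10.23 ± 0.15), and Cfd, the complement factor adipsin, from 9.6, 4.94 and 2.05 CPM to 4530, 4677 and 4412 CPM (9.68 ± 0.27, and 10.34 without undifferentiated library 1). Retn, the resistin gene, stood at 0, 0 and 1.53 CPM and then 1060, 977 and 1090 CPM, 1766-fold (95% counting interval 604 to 8564). Angiotensinogen, encoded by Agt, rose from 11.3, 3.53 and 11.8 CPM to 1584, 1523 and 1515 CPM (7.36 ± 0.15), and the chemerin gene Rarres2 from 18.1, 11.3 and 8.19 CPM to 1218, 1237 and 1289 CPM (6.64 ± 0.14). The vascular peptide gene Apln rose from 12.1 ± 1.46 to 62.6 ± 6.59 CPM (2.35), while Adm, another vascular peptide gene, fell (-0.86). Apolipoproteins, lipases and their regulators had 14 of 22 tested genes higher and 4 lower, 11 of the rises strong. Apoc1 rose from 1.69, 2.12 and 0.512 CPM to 467, 481 and 442 CPM (8.33 ± 0.20), and Apoa4, better known from the gut, from 0.565, 0 and 0 CPM to 62.8, 71.4 and 87.3 CPM, 384-fold (95% counting interval 68.5 to 15200). Enpp2, which encodes autotaxin, the enzyme that makes lysophosphatidic acid, rose from 7.91, 2.12 and 7.67 CPM to 357, 357 and 387 CPM (5.87 ± 0.16). Lipoprotein lipase, encoded by Lpl, rose from 46.1 ± 5.91 to 820.3 ± 55.5 CPM (4.14 ± 0.11), as did its inhibitor gene Angptl4 (174 ± 12.5 to 1013 ± 33.5 CPM, 2.55 ± 0.09). The falls were Apol9b (19.8, 18.3 and 19.4 to 0, 0.776 and 0.594 CPM), Apol9a (-3.60), Pla2g7, which hydrolyses platelet-activating factor (-4.02), and the phospholipid transfer gene Pltp (-0.70). Without regular library 2 the values of Apol9a and Pla2g7 were -4.51 and -4.73. Apol9a and Apol9b are near copies and uncertain.

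Growth factor genes were called lower in 20 of 29 tested cases, 10 of them strongly, and higher in 4 (median -1.36). Ereg, an EGF receptor ligand gene, fell from 13.6, 9.17 and 14.8 CPM to 1.82, 0.388 and 0.594 CPM (-3.95 ± 0.52, and -4.60 without regular library 1), and Pdgfb from 10.2, 13.4 and 16.9 CPM to 2.73, 1.16 and 0.594 CPM (-3.30 ± 0.46). The groups were apart for both. Csf1, the macrophage growth factor gene, fell from 415 ± 10.5 to 63.7 ± 4.85 CPM (-2.72), Fgf7 by -2.95 and the lymphatic factor gene Vegfc by -2.54. The 4 rises included the angiogenic factor genes Vegfa (196 ± 20 to 640.1 ± 11.7 CPM, 1.71 ± 0.09), Vegfb (145 ± 7.64 to 434 ± 18.4 CPM, 1.58 ± 0.09) and Angpt1 (0.65). In the IGF axis 6 of 11 tested genes rose and 2 fell. Igf2 rose from 0, 0.705 and 0.512 CPM to 30.9, 34.5 and 34.4 CPM, 86.9-fold (95% counting interval 23.7 to 723). Igfals, which stabilises circulating IGF complexes, rose from 0.565, 0 and 0.512 CPM to 33.7, 41.1 and 39.2 CPM, 100.3-fold (95% counting interval 27.4 to 834). The binding protein genes split, Igfbp4 rising (222 ± 33.9 to 563 ± 42.2 CPM, 1.34) and Igfbp6 falling (58.6 ± 5.76 to 9.9 ± 2.04 CPM, -2.63).

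BMP ligands and their antagonists moved in both directions, with 9 of 22 tested TGF-beta family genes higher and 7 lower. Gdf5, a BMP-type ligand gene, was at 0 in undifferentiated libraries and at 29.1, 33 and 35 CPM after differentiation, at least 55.5-fold higher. The antagonist gene Grem1 fell from 48.6, 56.4 and 54.2 CPM to 1.82, 0.776 and 1.78 CPM (-5.26 ± 0.35). Chrdl1, another antagonist gene, went from 0, 0 and 0.512 CPM to 36.4, 47.4 and 39.2 CPM, 219-fold (95% counting interval 38.9 to 8682). Receptor genes of the family rose in 5 of 10 tested cases, Acvr1b by 2.20 ± 0.18 and Acvrl1 by 2.28 ± 0.50, and fell in 3, with Eng, which encodes the co-receptor endoglin, falling from 11.9, 15.5 and 12.8 CPM to 3.64, 3.1 and 2.97 CPM (-2.04 ± 0.36). The inhibitory Smad genes parted, Smad6 rising (1.08) and Smad7 falling (-2.03).

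Chemokines and cytokines were called lower in 15 of 23 tested cases and higher in 3 (median -1.23). Cxcl10, an interferon-induced chemokine gene whose promoter is printed above, went from 20.3, 12.7 and 15.3 CPM to 0, 0.388 and 0.594 CPM, lower by 43.8-fold (95% counting interval 11.7 to 367). Cxcl5, a neutrophil attractant gene, fell from 43.5, 48.7 and 50.1 CPM to 1.82, 0.776 and 4.16 CPM (-4.47 ± 0.30, and -5.34 without regular library 3), and the monocyte attractant genes Ccl2 and Ccl7 by -4.08 and -3.83. The 1 strong rise was Ccl6, also printed above, from 1.69, 3.53 and 0.512 CPM to 122, 114 and 117 CPM (6.0 ± 0.25, and 6.67 without undifferentiated library 2). In the list of complement and coagulation genes, which also takes in genes of other kinds such as Orm1, 11 of 26 tested genes were called higher and 7 lower. C3 rose from 44, 38.1 and 43 CPM to 1940, 1900 and 1818 CPM (5.49 ± 0.10), Orm1, an acid glycoprotein gene, from 0, 2.82 and 0 CPM to 220.3, 216 and 216 CPM (7.98 ± 0.27), with all undifferentiated counts in library 2 of that group (7.36 and 7.28 without undifferentiated library 1 or 3, and no count left without library 2), and the haptoglobin gene Hp from 13.7 ± 3.48 to 336 ± 19.6 CPM (4.62 ± 0.17). C4b (0, 0.705 and 0 CPM before, 32.8, 33.8 and 26.7 CPM after) and the Orm genes have near copies, so their counts are uncertain. The falls included the plasminogen activator gene Plat (-3.18 ± 0.20) and the protein C receptor gene Procr (-3.20 ± 0.34). Protease inhibitors were called higher in 6 of 14 tested cases and lower in 5, with 6 and 2 strong changes and a median of -0.03. Serpine2, which encodes an inhibitor of thrombin and plasminogen activators, fell from 152, 151 and 159.6 CPM to 26.4, 21 and 20.8 CPM (-2.80 ± 0.13). Itih4 was at 0 and then at 43.7, 36.5 and 37.4 CPM, at least 67.2-fold higher, and Wfdc21, which encodes a small WAP-domain protein, rose from 0, 1.41 and 0.512 CPM to 139, 159.9 and 137 CPM, 255-fold (95% counting interval 86.8 to 1238).

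Genes of the secreted matrix moved in both directions. Among matrix glycoproteins 31 of 46 tested genes were called lower, 14 strongly, and 9 higher (median -0.93). Olfm1, an olfactomedin gene, fell from 33.9, 23.3 and 30.2 CPM to 0.91, 0 and 0 CPM, lower by 158-fold (95% counting interval 28 to 6295), and the adhesion modulator gene Tnc from 53.6, 62.8 and 69.1 CPM to 5.46, 3.49 and 4.16 CPM (-3.88 ± 0.24). Olfm2, of the same family as Olfm1, rose from 1.13, 0 and 2.05 CPM to 17.3, 19 and 20.8 CPM (3.95 ± 0.43, and 4.71 without undifferentiated library 3), and Sparcl1 rose from 54.5 ± 8.31 to 445 ± 18.6 CPM (3.02 ± 0.11). Fibrillar and associated collagens fell in 10 of 18 tested cases and rose in 6. Col8a1 fell from 16.9, 13.4 and 10.7 CPM to 0, 0.776 and 0 CPM, lower by 36.5-fold (95% counting interval 9.72 to 307), and Col1a2, the gene with the highest level in undifferentiated cells, from 10400 ± 373 to 4492 ± 219.9 CPM (-1.21 ± 0.06). Chain genes of collagen VI, which surrounds fat cells, rose, Col6a1 by 0.67, Col6a2 by 0.74 and Col6a3 by 1.23 ± 0.09 (577 ± 51.8 to 1352 ± 68.5 CPM). Basement membrane genes rose in 9 of 19 tested cases and fell in 5. Col4a1 (0.65), Col4a2 (0.89), the laminin genes Lama4 (1.09) and Lamb1 (0.79) and the linker gene Nid1 (0.85) were among the rises, and Lama5 (-1.84) and the agrin gene Agrn (-1.46) among the falls. Smoc1 rose from 0, 0 and 0.512 CPM to 13.7, 16.3 and 21.4 CPM, 89.3-fold (95% counting interval 15.6 to 3563).

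Most tested metalloproteinase and inhibitor genes fell. Of 38 tested metalloproteinases and inhibitors, 21 were called lower and 9 higher. Mmp9 fell from 27.7, 16.9 and 24 CPM to 0, 0 and 3.56 CPM (-4.27 ± 0.50, and -3.44 without regular library 2), with all remaining counts in regular library 3, and Mmp3 from 7.91, 7.76 and 3.07 CPM to no UMI, at least 11.2-fold lower. All 3 tested Timp inhibitor genes fell, Timp3 from 48, 39.5 and 42 CPM to 0.91, 3.1 and 2.97 CPM (-4.02 ± 0.32), Timp1 by -2.99 and Timp2 by -2.14. Adamts15 and Adam12 rose, the first from 0, 0 and 1.02 CPM to 16.4, 18.6 and 17.8 CPM, 46.1-fold (95% counting interval 12.4 to 386), and the second from 1.13, 2.82 and 1.53 CPM to 31.9, 31.1 and 39.2 CPM (4.21 ± 0.34). Among collagen-processing enzymes 11 of 22 tested genes fell, including the cross-linking enzyme genes Lox (-2.03) and Loxl4 (-3.15), and 5 rose, including Plod1, a collagen lysyl hydroxylase gene (239.6 ± 12 to 645 ± 25.2 CPM, 1.43), and the transglutaminase gene Tgm2 (0.97 ± 0.634 to 15.5 ± 3.08 CPM, 3.92 ± 0.45, and 4.51 without undifferentiated library 1).

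Outside the 4 classes, genes with no count in a group mark the extremes. In undifferentiated cells 153 genes of the table had no UMI in any library, 39 of which reached 10 CPM after differentiation, against 48 and 2 in the other direction. Every gene in the table had at least 6 counts in at least 1 of the 12 libraries. Only 3 of those libraries were of undifferentiated cells, which can favour the first of these counts. The floor behind these bounds was 3 counts over a group, or 0.583 CPM in undifferentiated and 0.56 CPM in differentiated libraries. Among genes with no count in undifferentiated cells, the sulfotransferase gene Sult1a1 had the highest level, 169, 157 and 164 CPM after differentiation, at least 281-fold higher. It was followed by Hcar1 and by Vsir, which encodes the immune checkpoint protein VISTA (73.7, 71.4 and 66.5 CPM, at least 121-fold). Next came Ffar2, the cytochrome P450 gene Cyp2ab1 (72.8, 56.3 and 60.6 CPM), Adrb3, Ffar4, the kinase gene Aatk (45.5, 48.1 and 44.5 CPM), the lipid hydrolase gene Pnpla3 (51.9, 37.6 and 46.3 CPM) and Smim5 (55.5, 39.6 and 40.4 CPM). In the other direction Edn1 and the antiviral gene Mx1 (9.6, 12.7 and 6.14 CPM before, none after) led the tested genes, and Samd9l, with 41.8, 4.23 and 2.05 CPM in undifferentiated libraries, had most of its counts in library 1 and was not tested.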

How the data were processed

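Per the labels, RNA of each sample (30 ng) was made into MARS-seq libraries, a 3′ method with unique molecular identifiers (UMIs). The authors deposited raw UMI counts per gene and library for 11022 genes. Cutadapt, HTSeq and DESeq2 and the build mm10 are named per the submitters' processing notes, while the sources used here do not give the aligner, the annotation or the strand setting of counting. The authors' deposited table also holds log2 fold changes and adjusted p-values, used here only to count calls in the same direction. A few genes named by rule are not reported here. The table's 24 other per-sample columns were not used.

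The raw counts were tested with edgeR 4.0.16 in R 4.3.3 (filterByExpr, TMM scaling, robust quasi-likelihood fit of all 12 libraries by group, contrast regular minus undifferentiated), with Benjamini-Hochberg adjustment over 9378 genes. The biological coefficient of variation was 9.38%, and the SE was taken from the F statistic. The fit recovered known changes in simulated counts in which few genes changed and libraries were independent. That setting differs from these data, where 57.6% of tested genes were called. CPM used total UMIs scaled by TMM, and correlations used log2 CPM with a prior count of 2. Classes and 66 families were defined by patterns of gene symbols. The members, families, markers and motifs were chosen with earlier results of these data known. Named genes were the 8 largest rises and 8 largest falls of each class, the 3 largest changes of each family (group mean of at least 10 CPM, called), the 10 highest genes with no count in the other group and the 10 highest genes of each group; further genes in the text were chosen after their values were seen. Promoters came from RefSeq, taking the first entry of the 1558 symbols with more than 1.

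Alternatives were DESeq2 1.42.0, its size factors, total counts, no filter, the 6 libraries alone, libraries thinned to the lowest total, a threshold of 1 on the log2 scale, each library left out, and replicate numbers as a block. Deviations of libraries with the same number in both groups correlated at -0.0276, 0.00184 and -0.0043, so the numbers were not taken to pair the libraries. Families of near-identical genes and overlapping or antisense genes are uncertain.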

Additional observations from a re-analysis of the deposited data

How the results depend on the processing

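Of the 245 called genes whose change the text gives, 242 were called in the same direction under every alternative that tested them, and 3 lost the call under at least 1 (Cd68, Cebpb and Slc27a3, with values above), Cebpb also with DESeq2 size factors (0.19), with no filter (0.15) and thinned (0.11). None of the 245 reversed. Counts of calls over all genes and of strong changes per class stayed within 1.5 times with DESeq2, its size factors, total counts, the 6 libraries alone and each library left out. With libraries thinned to the lowest total, strongly lower transcription factors numbered 13 and strongly lower transporters 11, since fewer counts remained. With no filter on low counts, 573 genes were strongly lower, and 42 receptors were strongly higher and 42 strongly lower. At a threshold of 1 on the log2 scale, 1422 genes were called higher and 1178 lower, with 54 and 65 transcription factors, 51 and 65 receptors, 72 and 40 transporters, and 106 secreted proteins lower. With the replicate block, 2759 genes were called higher and 2614 lower, 524 and 359 of them strongly. The replicate numbers gave no sign of pairing, and the block changed 2 of 236 calls of genes named by rule. Depth limits genes of few UMIs: a gene with no count in a group could lie at up to 0.583 CPM in undifferentiated and 0.56 CPM in differentiated cells.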

Other observations

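Ligand genes and their receptor genes, set side by side after their values were seen, moved together in some pairs and apart in others. Pdgfa fell from 164 ± 2.14 to 44.4 ± 4 CPM (-1.88), and Pdgfb and the receptor gene Pdgfrb fell too. The other PDGF receptor gene, Pdgfra, was not called (56.4 ± 5.12 and 53.6 ± 8.31 CPM, edgeR adjusted p = 0.61). Fgf7, which encodes a ligand of an Fgfr2 splice form, fell from 108 ± 12.6 to 14 ± 3.3 CPM (-2.95) while Fgfr2 rose (2.22). Enpp2, the source of lysophosphatidic acid, rose (5.87) while the receptor gene Lpar1 fell (-2.49). Gas6, a ligand of Axl and Mertk, was not called (178 ± 2.93 and 183 ± 6.12 CPM, edgeR adjusted p = 0.797), and protein S, encoded by Pros1, fell from 43.1 ± 6.32 to 17.8 ± 4.44 CPM (-1.35). Sema3a, a repulsive guidance cue, fell from 11.8 ± 4.01 to 1.28 ± 0.448 CPM (-3.10), as did its receptor gene Plxna1 (-0.80). The guidance receptor gene Nrp1 was not called (35.8 ± 7.97 and 32.1 ± 7.82 CPM, edgeR adjusted p = 0.723).

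The TGF-beta isoforms were also split. Tgfb3 fell from 43.9 ± 5.42 to 11.5 ± 1.91 CPM (-1.97), while Tgfb1 rose (48.1 ± 1.6 to 71.5 ± 9.82 CPM, 0.55). These proteins restrain adipogenesis in culture. Fst, which encodes the activin antagonist follistatin, fell from 28 ± 4.08 to 12.6 ± 1.69 CPM (-1.15). Whether any pair acts in these cells was not tested.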
